A study of Mus musculus with 18 samples.

Results

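The 43 genes described here encode the transcription factors of ciliated cells and the parts of the axoneme, the microtubule skeleton that lets a cilium beat. They were chosen by gene symbol, with earlier results of these data known. All 43 of 43 were found in each of the 3 tables of exon reads, which hold 49585 genes (Aire and Fezf2 tables) and 21969 genes (Chd4 table). All 43 are protein coding in GRCm38. By role they comprise 6 regulators, 10 dynein heavy chains, 4 other dynein components, 6 components of the ruler, nexin links and tethers, 10 components of the radial spokes and the central pair, and 7 tektins and other axonemal proteins.

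The libraries are RNA-seq of sorted medullary epithelial cells of the mouse thymus (mTECs), which express antigens otherwise limited to other organs and so expose maturing thymocytes to them. The 18 libraries fall into 6 groups of 3. C57BL/6 mice labelled Aire KO were compared with a C57BL/6 wild-type (WT) group of their own, and C57BL/6 mice labelled Fezf2 KO, which the column names call Fezf2cKO, with a second C57BL/6 WT group. The Chd4 groups were C57BL/6x129P2. Their control carried floxed Chd4 on both alleles, and the conditional knockout (cKO) carried the same alleles with Foxn1-Cre, a recombinase driven by the promoter of a thymic epithelial transcription factor. Each control is named after its comparison (WT for Aire, WT for Fezf2, Chd4 control), and A, B and C stand for the 3 libraries within a group. Mouse ages, the altered part of Aire and any pooling of animals were not found in the labels, and p-values then describe only the scatter among these libraries, which may be technical.

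Motile cilia beat because dynein arms on the outer microtubule doublets pull on the neighbouring doublet, with radial spokes and the central pair of microtubules regulating the stroke. In multiciliated cells of airway, oviduct and brain ventricle, Gmnc and Mcidas (multicilin) start the programme together with E2F factors, Ccno (cyclin O) and other genes support the massive production of centrioles, and Foxj1 with the RFX factors switches on the axonemal genes. Single-cell work has described a small set of mTECs that resemble ciliated cells of such tissues. Aire and Fezf2 are transcriptional regulators of peripheral-tissue genes in mTECs, and Chd4 is a helicase and the motor of the chromatin remodeller NuRD. In the bulk libraries used here, fewer cells of a type and less RNA per cell cannot be told apart.

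Exon reads per library ranged from 3571570 to 17220157, with the Chd4 cKO library B deepest, and 3 reads, taken as the limit that a count of 0 allows, corresponded to 0.174 to 0.84 CPM (exon reads scaled to the library size). Fezf2 stood at 570 to 735 CPM in its WT and at 8.44 to 23.4 CPM in the Fezf2 KO, and Chd4 at 55.4 to 66.5 CPM in its control and at 24.6 to 30.2 CPM in the cKO. Aire reads were higher in the libraries labelled Aire KO (3737 to 4088 CPM) than in their WT (1810 to 2302 CPM). Since the labels do not name the altered exons and these reads come from the gene at full length, they are no check of the label, and directions below hold for libraries so labelled. All 10 mTEC markers (Epcam, Krt5, Cd80, Foxn1 and others) passed the filter on low counts in every comparison, and some were called: Krt5 and Epcam lower and Cd80, H2-Aa and Aire higher in the libraries labelled Aire KO, Foxn1, Krt8 and Aire lower and Krt5 higher in the Chd4 cKO, and Krt5 higher in the Fezf2 KO (log2 fold changes of Krt5 -0.69, 0.76 and 1.51). Their part in the results below was not tested. Thymocyte markers summed to 413 to 800.1 CPM in the WT for Fezf2, against 199 to 260 CPM in the Fezf2 KO, 75.7 to 157 CPM in the WT for Aire and 74.5 to 128 CPM in the libraries labelled Aire KO. Library B of the WT for Fezf2 stood apart from the rest: leaving it out raised the genes called in the Fezf2 comparison from 376 lower and 389 higher to 981 and 1053, so values without it are given beside the results of the Fezf2 KO and of the WT groups. The Aire and Fezf2 libraries came from one sequencing run and the Chd4 libraries from another, counted on another annotation, so levels are not compared between them.

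Mcidas and Ccno, which act early in multiciliogenesis, are neighbours in the genome. Ccno (ENSMUSG00000042417) spans 112987802 to 112990777 of chromosome 13 and Mcidas (ENSMUSG00000074651) spans 112993845 to 113000394, both on the plus strand of GRCm38, 3067 bases apart and with 0 annotated genes between them. Promoter windows of 300 bases around the RefSeq start (GRCm38.p6) were found for 36 of the 43 genes. Foxj1, Dnah3, Dnaaf1, Rsph1, Rsph4a, Cfap54 and Tppp3 were not matched. RFX factors bind X-box motifs whose half-site is GTTGCC, which on the other strand reads GGCAAC, and this half-site was present in 19 of the 36 genes with a window (52.8%), against 14.1% of the 27025 genes with any window. The forkhead letters TGTTTAC, which on the other strand read GTAAACA, were present in 2 of 36 (5.56%), against 4.05% of all genes, and the motifs do not overlap in letters. A match is a description of the window and not a measured binding site. The windows of 4 genes are printed because the results below turn on them: the neighbours Ccno and Mcidas, Cfap46, which had the lowest fold change of the 25 genes tested in the libraries labelled Aire KO, and Dnaic2, which rose in the Chd4 cKO. Each is read 5′ to 3′ on the strand of its gene, and capitals mark the RFX half-site.
Ccno promoter, chr13:112987552-112987851, plus strand: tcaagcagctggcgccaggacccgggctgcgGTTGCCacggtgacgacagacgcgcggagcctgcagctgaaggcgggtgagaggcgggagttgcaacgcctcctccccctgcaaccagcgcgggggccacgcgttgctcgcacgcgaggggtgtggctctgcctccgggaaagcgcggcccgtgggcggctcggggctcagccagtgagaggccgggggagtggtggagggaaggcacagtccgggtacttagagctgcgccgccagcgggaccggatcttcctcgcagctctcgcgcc
Mcidas promoter, chr13:112993618-112993917, plus strand: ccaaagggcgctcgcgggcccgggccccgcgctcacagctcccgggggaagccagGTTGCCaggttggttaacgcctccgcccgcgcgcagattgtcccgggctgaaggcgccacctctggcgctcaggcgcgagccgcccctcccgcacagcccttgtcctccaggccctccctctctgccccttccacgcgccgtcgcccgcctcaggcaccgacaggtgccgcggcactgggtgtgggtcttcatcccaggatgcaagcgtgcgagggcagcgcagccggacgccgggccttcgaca
Cfap46 promoter, chr7:139683766-139684065, minus strand: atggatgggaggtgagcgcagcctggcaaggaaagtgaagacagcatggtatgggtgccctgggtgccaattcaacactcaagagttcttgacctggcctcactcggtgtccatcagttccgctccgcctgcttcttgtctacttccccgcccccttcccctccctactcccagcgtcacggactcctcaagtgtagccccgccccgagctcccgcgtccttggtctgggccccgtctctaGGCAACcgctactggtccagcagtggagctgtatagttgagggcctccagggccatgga
Dnaic2 promoter, chr11:114727169-114727468, plus strand: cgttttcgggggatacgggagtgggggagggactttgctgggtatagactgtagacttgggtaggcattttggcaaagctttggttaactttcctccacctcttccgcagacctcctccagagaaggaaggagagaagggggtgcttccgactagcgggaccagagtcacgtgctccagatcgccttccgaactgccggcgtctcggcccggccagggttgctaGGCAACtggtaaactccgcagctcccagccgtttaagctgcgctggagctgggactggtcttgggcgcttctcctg
By these exact letters, all 4 windows hold 1 half-site each. Near matches were not counted, and a link between the half-site and the direction of a change was not tested.

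The reads were spread unevenly over the 43 genes. Summed over the 43 genes, levels were 288 to 323 CPM in the WT for Aire, 214 to 266 CPM in the libraries labelled Aire KO, 444 to 578 CPM in the WT for Fezf2, 381 to 472 CPM in the Fezf2 KO, 632 to 703 CPM in the Chd4 control and 551 to 610 CPM in the Chd4 cKO. Dnaic2, an intermediate chain of the outer dynein arm, and Tppp3, a tubulin-binding protein of ciliated and other cells, together took 21.4 to 45% of these sums. Per kilobase of exon, Tppp3, Dnaic2 and Foxj1 had the highest levels in the WT for Aire (17, 14.4 and 6.25 CPM per kilobase) and in the WT for Fezf2 (55.9, 16.7 and 10.7 CPM per kilobase), and in the Chd4 control Tppp3, Dnaic2 and Lrrc23 (43.3, 26.3 and 24.1 CPM per kilobase). Several dynein heavy chains were near the limit of detection, such as Dnah3 at 0.0491 CPM per kilobase in the WT for Aire. The median over the 43 genes moved more than the sum. It was 2.69 to 3.67 CPM in the WT for Aire and 0.714 to 1.5 CPM in the libraries labelled Aire KO, and 9.28 to 11.1 CPM in the Chd4 control and 4.6 to 5.14 CPM in the cKO, with no overlap in either pair. In the Fezf2 pair it was 5.45 to 6.98 CPM in the WT and 4.54 to 5.96 CPM in the KO, and the groups overlapped. Between 42 and 43 of the genes had at least 1 read in every library other than those labelled Aire KO, where 33 to 37 had one. Over all genes, fewer had a read there too. At similar depth, 18771 to 19260 genes had one in the libraries labelled Aire KO, against 20997 to 21890 in the WT for Aire.

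**Figure D1:**
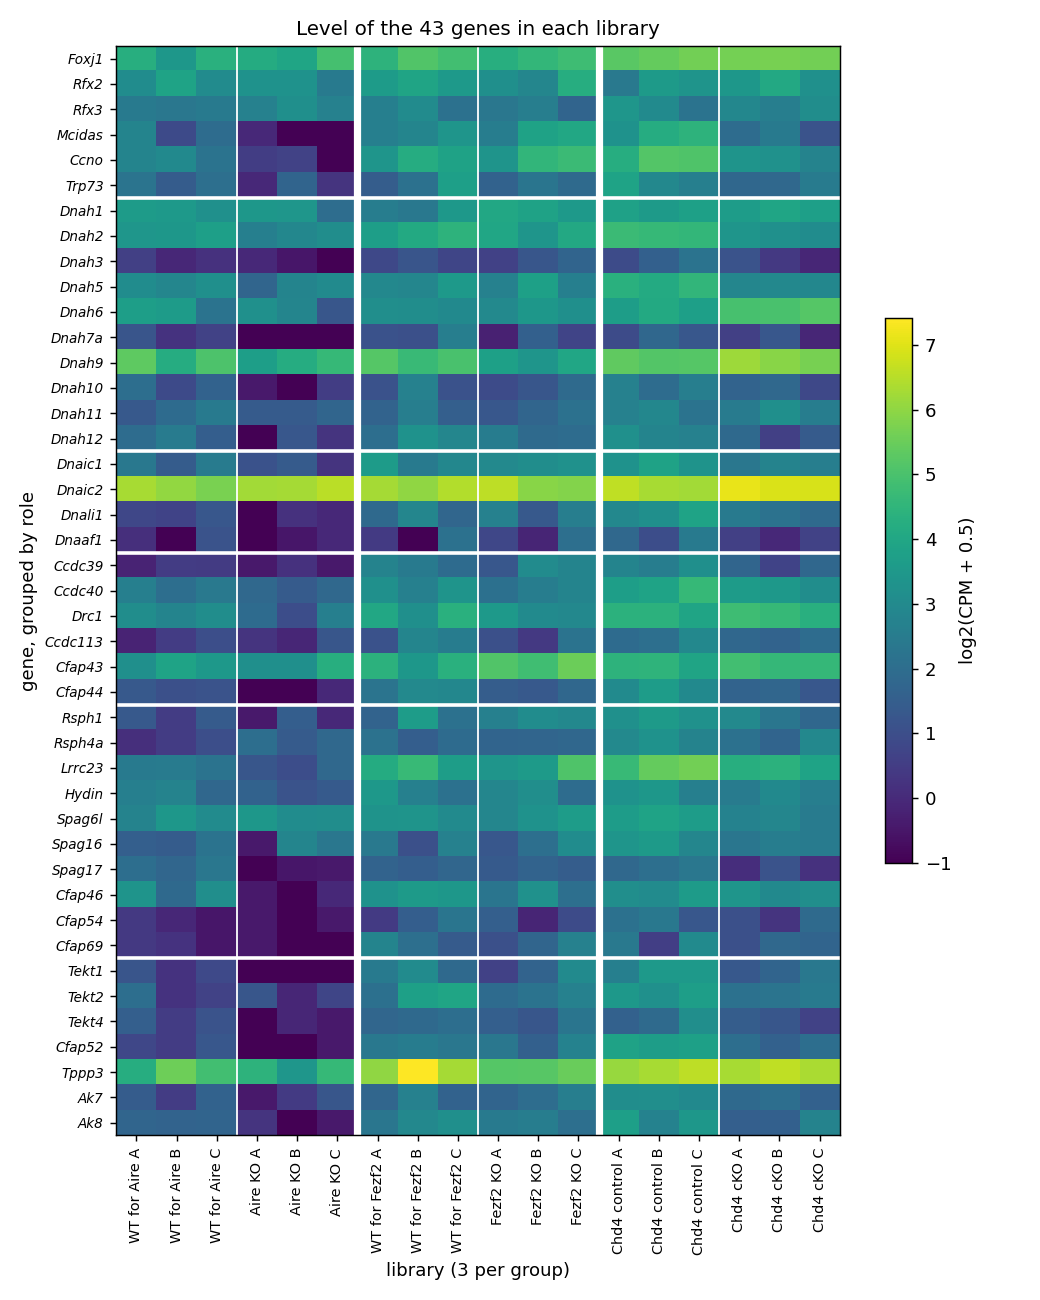
Level of the 43 genes (rows, grouped by role and separated by white lines) in each of the 18 libraries (columns), as log2(CPM + 0.5). The rows of Dnaic2 and Tppp3 are bright in every library. Dark cells gather in the 3 libraries labelled Aire KO, where 33 to 37 of the 43 genes had a read. Over all genes, too, fewer had a read there (18771 to 19260, against 20997 to 21890 in the WT for Aire). The scale of the Chd4 libraries comes from another run and annotation.

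Setting the libraries labelled Aire KO against their WT addresses which transcripts of mTECs depend on Aire. The regulators split: Ccno fell and Mcidas, too low to be tested, had 2 reads against 54 in the WT, while Foxj1, Rfx2 and Rfx3 did not pass the test. A central pair protein (Cfap46), the central pair scaffold Spag17 and the ciliary adenylate kinase Ak8 fell with Ccno. Of the 43 genes, 25 passed the filter on low counts, 4 of them were called lower and 0 higher by edgeR's quasi-likelihood test (adjusted p under 0.05), where 9.37% of all genes tested were called lower and 5.73% higher. At an unadjusted p under 0.05, 12 were lower and 0 higher, where 15.5% and 12.2% of all genes tested were. DESeq2 called 5 lower and 0 higher, where it called 8.64% of all genes lower and 4.21% higher.

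Mcidas had 6.46, 1.35 and 3.45 CPM in the WT for Aire against 0.476, 0 and 0 CPM in those labelled Aire KO. Every WT library lay above every KO library. It did not pass the filter, so the size of the difference is given as the ratio of its 54 reads to 2 reads, scaled by library size, of 25.2 with an exact 95% interval of 6.64 to 213 that covers counting error only. Ccno had 6.46, 7.4 and 4.1 CPM in the WT and 0.952, 1.07 and 0 CPM in the KO. The groups did not overlap, and the log2 fold change was -3.08 ± 0.69 (SE, edgeR adjusted p = 0.00816). Cdc20b, a gene downstream of this pair that also acts in centriole production and was picked after its values were seen, had 2.02, 0.449 and 1.94 CPM in the WT and no read in the 3 KO libraries. Gmnc, the geminin-family protein that acts upstream of Mcidas and a gene on the list of other multiciliogenesis genes, fell by 2.59 ± 0.67 on the log2 scale (SE, edgeR adjusted p = 0.0182), from 4.23 ± 1.74 to 0.666 ± 0.55 CPM (SD, n = 3). That list did not fall as a whole: of 12 genes tested, 1 was called lower and 2 higher. Those higher were Tfdp1 (log2 fold change 0.73 ± 0.13, edgeR adjusted p = 0.00163) and Myb (0.60 ± 0.17, edgeR adjusted p = 0.0267).

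The factors that switch on axonemal genes gave no difference like that of Mcidas and Ccno. Foxj1 had 18.8, 10.6 and 19.9 CPM in the WT and 17.4, 14.8 and 29.8 CPM in those labelled Aire KO, with overlapping groups and a log2 fold change of 0.33 ± 0.31 (edgeR adjusted p = 0.557). Rfx2 had a log2 fold change of -0.35 ± 0.37 and Rfx3 of 0.50 ± 0.38, with edgeR adjusted p of 0.609 and 0.452. The 3 libraries of Rfx3 labelled Aire KO (5.95, 8.57 and 5.91 CPM) all lay above its WT (5.05, 4.49 and 4.97 CPM), although the difference did not pass the test. Trp73, the p53-family factor upstream of Foxj1 in multiciliated cells, had 4.24, 2.24 and 3.67 CPM in the WT and 0.476, 2.79 and 0.709 CPM in the KO, and the groups overlapped through library B (log2 fold change -1.31 ± 0.65, edgeR adjusted p = 0.216).

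Among the genes of the radial spokes and the central pair, 6 of 10 were tested and 2 fell. Cfap46 had 9.69, 3.14 and 8.42 CPM in the WT and 0.238, 0 and 0.473 CPM in those labelled Aire KO, and its log2 fold change was -4.79 ± 0.79 (edgeR adjusted p = 0.00109). Spag17 had 3.63, 2.92 and 4.53 CPM in the WT and 0, 0.214 and 0.236 CPM in the KO, with a log2 fold change of -4.37 ± 0.78 (edgeR adjusted p = 0.00188). Both genes were close to the limit of detection in the KO and clear of it in the WT. Since the KO holds 3 reads of Cfap46 and 2 of Spag17, their ratios of reads are 31.4 (exact 95% interval 10.4 to 155) and 24.2 (6.38 to 206), for counting error only. Other genes of the same structures went differently: Spag6l, a central pair protein, had 6.26, 10.3 and 7.77 CPM in the WT and 10.5, 7.93 and 8.28 CPM in the KO (log2 fold change 0.13 ± 0.33, edgeR adjusted p = 0.847). Rsph4a, a radial spoke head protein, had 0.606, 0.898 and 1.51 CPM in the WT and 3.57, 2.14 and 3.07 CPM in the KO, and was, with Rfx3, 1 of the 2 genes whose KO libraries all lay above the WT. Too few reads were present for Rsph4a to pass the filter. Lrrc23, a radial spoke protein, and Hydin, a large central pair protein, had log2 fold changes of -1.14 ± 0.48 and -1.21 ± 0.50 without overlap between the groups, and did not pass (edgeR adjusted p of 0.144 and 0.13).

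The dynein heavy chains had lower means in the libraries labelled Aire KO in 10 of 10 cases, but 0 of the 7 tested were called. The other 3 had too few reads to be tested, and the share of all genes with a lower mean was not taken. Dnah9, an outer arm heavy chain and the highest of them, had 39.8, 18 and 33 CPM in the WT and 12.6, 17.8 and 24.1 CPM in the KO (log2 fold change -0.74 ± 0.30, edgeR adjusted p = 0.123). The groups overlapped, and the gene was called without library B of the WT or C of the KO (edgeR adjusted p of 0.0319 and 0.048). Dnah12, an inner arm heavy chain, had 3.43, 5.16 and 2.38 CPM in the WT and 0, 1.93 and 0.709 CPM in the KO without overlap (log2 fold change -1.98 ± 0.76, edgeR adjusted p = 0.104). Dnah7a, another inner arm chain whose close relatives Dnah7b and Dnah7c are counted as genes of their own and whose values are uncertain for that reason, had 17 reads in the WT and 0 in the KO, which is at least 5.28-fold lower when 3 reads are allowed over the group. Dnaic2 had 78.5, 66 and 52.3 CPM in the WT and 75.2, 77 and 92.7 CPM in the KO (log2 fold change 0.31 ± 0.16, edgeR adjusted p = 0.222), while Dnaic1, the other outer arm intermediate chain, had 4.64, 2.24 and 5.18 CPM in the WT and 1.67, 2.14 and 0.709 CPM in the KO (-1.39 ± 0.58, edgeR adjusted p = 0.131). The partners thus stood at different levels, and neither passed the test.

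Tektins are filament proteins bound inside the doublet microtubules. Tekt1 had 1.82, 0.673 and 1.29 CPM in the WT and no read in those labelled Aire KO, at least 5.60-fold lower with 3 reads allowed over the group. Cfap52, another protein inside the doublets, had 19 reads in the WT and 1 in the KO, a ratio of 17.7 with an exact interval of 2.82 to 736. Ak8 had 2.83, 2.69 and 2.81 CPM in the WT and 0.714, 0 and 0.236 CPM in the KO (log2 fold change -3.06 ± 0.79, edgeR adjusted p = 0.0183). Its groups were far apart, but the call was lost when library B or C of the KO or any 1 WT library was left out (edgeR adjusted p of 0.0575 to 0.0884). Tppp3 had 18.4, 46.7 and 28.9 CPM in the WT and 21.2, 10.3 and 24.4 CPM in the KO with overlap (-0.75 ± 0.35, edgeR adjusted p = 0.176).

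The means of 35 of the 43 genes were lower in the libraries labelled Aire KO and those of 8 higher. Among the 41 with at least 10 reads over the 6 libraries, 19 lay lower without overlap, 2 higher, and 20 overlapped, where 19.2% of all such genes lay lower without overlap and 12.3% higher. With the filter on low counts left out, the median log2 fold change was -1.12 over the 43 genes and -0.12 over all 25540 genes, and 9 of 43 were called lower (Mcidas, Ccno, Spag17, Cfap46, Ak8, Tekt1, Dnah7a, Dnah9 and Tppp3), where 8.84% of all genes were. With the filter, 7 were called lower without library C of the KO, where 9.89% of all genes tested were. Of the other genes of the motile axoneme, 38 of 67 in the table were tested and 2 fell (Dnah14 by 1.43 ± 0.42, edgeR adjusted p = 0.0366, and Mlf1 by 1.32 ± 0.38, edgeR adjusted p = 0.0338, on the log2 scale). Of the 33 genes of intraflagellar transport and the BBSome, which build primary and motile cilia alike, 0 fell and Ift172 rose by 0.58 ± 0.15 (edgeR adjusted p = 0.0182). Markers of airway secretory cells, which line the airway with ciliated cells, fell in 5 of 5 tested (summed level 402 to 555 CPM in the WT and 87.0 to 209 CPM in the KO). Their part in the result was not tested.

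**Figure D2:**
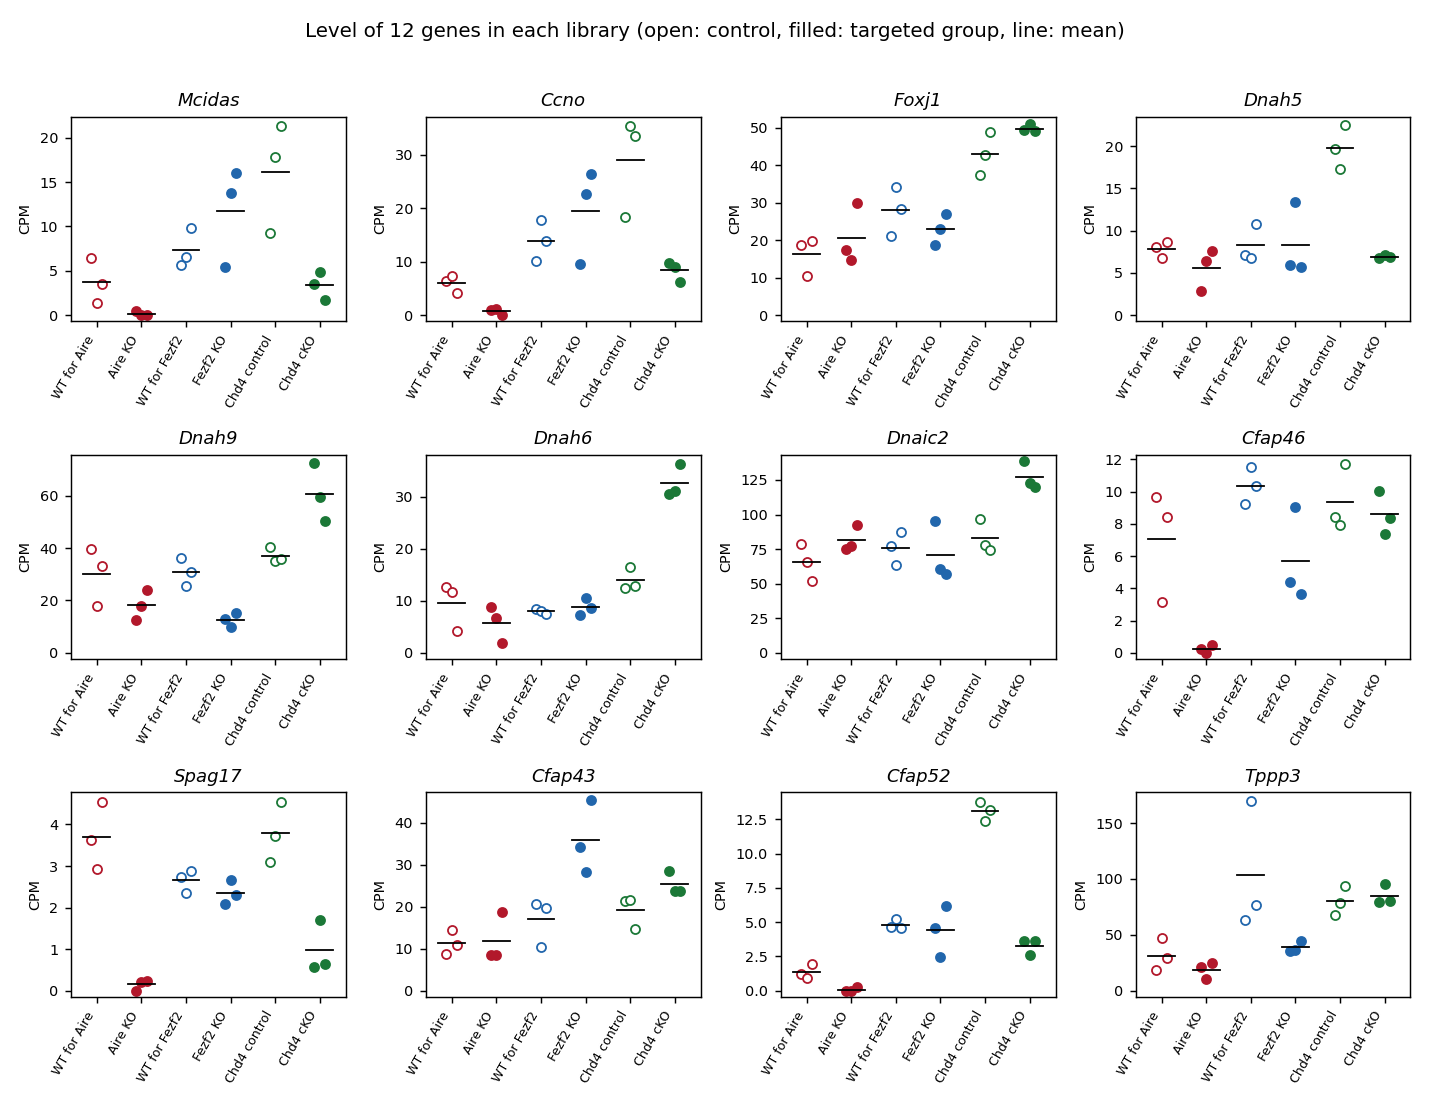
CPM of 12 genes in each library, 1 panel per gene with its own linear axis from 0; open points are control libraries, filled points the targeted group and lines the means of 3. Mcidas, Ccno, Cfap46 and Spag17 lie near 0 in the libraries labelled Aire KO, and Dnah9, Dnah6 and Dnaic2 lie above the control in the Chd4 cKO while Mcidas, Ccno, Dnah5 and Cfap52 lie below it.

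The Chd4 comparison addresses which of these transcripts depend on the NuRD helicase. The cKO differs from its control by Foxn1-Cre, so effects of the Cre itself and of the loss of Chd4 cannot be told apart. Many of the genes fell in the cKO, and a few rose. Of 40 genes tested, 19 were called lower and 3 higher by edgeR, where 14.3% of all genes tested were called lower and 14.3% higher. Genes called lower were found in all 6 roles, and those called higher were 3 dynein genes, Dnah6, Dnah9 and Dnaic2. Foxj1, Rfx2 and Rfx3 were again not called.

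Among the regulators, Mcidas had 9.28, 17.8 and 21.3 CPM in the Chd4 control and 3.45, 4.86 and 1.71 CPM in the cKO, with a log2 fold change of -2.16 ± 0.39 (edgeR adjusted p = 0.00238). Its neighbour Ccno had 18.3, 35.4 and 33.5 CPM in the control and 9.78, 9.08 and 6.21 CPM in the cKO (-1.77 ± 0.27, edgeR adjusted p = 0.000881). Neither gene had overlapping groups. Trp73 had 14.1, 7.17 and 5.74 CPM in the control and 3.02, 3.05 and 5.14 CPM in the cKO (-1.30 ± 0.41, edgeR adjusted p = 0.0351), a call lost without library A or B of either group (edgeR adjusted p up to 0.172). Foxj1 had 37.4, 42.8 and 48.8 CPM in the control and 49.5, 50.9 and 49.0 CPM in the cKO, slightly above the control in every library, and did not pass (0.21 ± 0.12, edgeR adjusted p = 0.234). Called genes of every axonemal role fell beside it, 3 dynein heavy chains, 2 other dynein components, 2 genes of the ruler and tethers, 4 of the radial spokes and central pair and 5 tektins and others. On the list of other multiciliogenesis genes, the forkhead factor Foxn4 fell by 2.26 ± 0.39 and the centriole amplification protein Ccdc78 by 1.20 ± 0.39 on the log2 scale (edgeR adjusted p of 0.00208 and 0.0388), and Myb rose by 0.45 ± 0.10 (edgeR adjusted p = 0.00767).

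The dynein heavy chains split within the same arm. Dnah5, an outer arm chain, had 19.7, 17.3 and 22.5 CPM in the control and 6.76, 7.09 and 6.85 CPM in the cKO (log2 fold change -1.52 ± 0.20, edgeR adjusted p = 0.000422). Dnah9, its outer arm partner, had 40.5, 35.1 and 35.9 CPM in the control and 72.6, 59.5 and 50.5 CPM in the cKO (0.72 ± 0.15, edgeR adjusted p = 0.00483). All 3 cKO libraries were below the control for Dnah5 and above it for Dnah9. Of the inner arm chains, Dnah6 had 12.4, 16.6 and 12.9 CPM in the control and 30.6, 31.1 and 36.4 CPM in the cKO (1.22 ± 0.17, edgeR adjusted p = 0.000581). Dnah2 had 26.2, 24.2 and 23.0 CPM in the control and 9.92, 8.90 and 7.92 CPM in the cKO (-1.45 ± 0.18, edgeR adjusted p = 0.000292). Both changes were far larger than the spread within the groups. Dnah12 fell as well (-1.82 ± 0.46, edgeR adjusted p = 0.0138, and 0.0539 without control library A), while Dnah1 and the outer arm chain Dnah11 had log2 fold changes of 0.07 ± 0.20 and 0.22 ± 0.34 (edgeR adjusted p of 0.833 and 0.67). Dnah10 lay lower without overlap and did not pass (-0.99 ± 0.42, edgeR adjusted p = 0.0983). Dnah3 and Dnah7a had too few reads to be tested.

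The intermediate chains of the outer arm went in opposite directions. Dnaic2 had 96.8, 78.2 and 74.4 CPM in the control and 139, 123 and 119.9 CPM in the cKO (log2 fold change 0.62 ± 0.12, edgeR adjusted p = 0.00329), and Dnaic1 had 9.28, 13.9 and 9.57 CPM in the control and 4.60, 6.21 and 5.57 CPM in the cKO (-0.98 ± 0.28, edgeR adjusted p = 0.0231). Neither had overlapping groups. Dnali1, a light intermediate chain of the inner arms, fell by 1.30 ± 0.34 on the log2 scale (edgeR adjusted p = 0.0167). The call on Dnaic1 was lost without library A or C of the cKO or B of the control, and that on Dnali1 without B or C of the cKO or C of the control (edgeR adjusted p up to 0.103 and 0.0804). Dnaaf1, which helps to assemble dynein arms in the cytoplasm, had 3.10, 1.48 and 5.03 CPM in the control and 1.01, 0.469 and 1.07 CPM in the cKO, lower without overlap and not tested.

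Ccdc39 and Ccdc40 together form the ruler that sets the repeat of the axoneme. Ccdc39 had 6.47, 5.44 and 8.61 CPM in the control and 2.88, 1.11 and 2.998 CPM in the cKO and fell by 1.66 ± 0.45 on the log2 scale (edgeR adjusted p = 0.0193, and up to 0.0723 without library B of the cKO or C of the control). Ccdc40 had 12.7, 14.1 and 24.2 CPM in the control and 11.8, 10.7 and 8.14 CPM in the cKO, also without overlap, and did not pass (-0.73 ± 0.27, edgeR adjusted p = 0.0685). A similar difference appeared in the tether of the inner arms, made of Cfap43 and Cfap44. Cfap44 had 7.60, 12.1 and 7.42 CPM in the control and 2.73, 2.93 and 1.93 CPM in the cKO (-1.79 ± 0.35, edgeR adjusted p = 0.00356), whereas Cfap43 had 21.4, 21.5 and 14.6 CPM in the control and 28.5, 23.7 and 23.8 CPM in the cKO, above the control and short of the threshold (0.40 ± 0.19, edgeR adjusted p = 0.131). Drc1, a subunit of the nexin link, had 20.5, 20.5 and 14.6 CPM in the control and 27.0, 24.4 and 19.3 CPM in the cKO with overlap (0.36 ± 0.20, edgeR adjusted p = 0.2).

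In the radial spokes and central pair, 4 of 10 genes fell and all 10 had lower means. Lrrc23 had 24.8, 42.6 and 48.8 CPM in the control and 18.8, 20.6 and 14.4 CPM in the cKO (log2 fold change -1.09 ± 0.24, edgeR adjusted p = 0.00623). Spag6l fell by 1.06 ± 0.24, Spag17 by 1.76 ± 0.50 and Spag16 by 0.89 ± 0.30 on the log2 scale (edgeR adjusted p of 0.0078, 0.0229 and 0.0447). Of these, Spag16 was not called by DESeq2 (adjusted p = 0.0739), without the filter, or without any library other than control library C (edgeR adjusted p up to 0.165), and Spag17 was lost without library A or C of the cKO or B or C of the control (up to 0.0788). Cfap46, lowest of the 25 genes tested in the libraries labelled Aire KO, had 8.44, 7.92 and 11.7 CPM in the Chd4 control and 10.1, 7.38 and 8.35 CPM in the cKO (-0.14 ± 0.26, edgeR adjusted p = 0.736). Its groups overlapped.

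Of the 7 tektins and other axonemal proteins, 5 were called lower and 0 higher. Cfap52 had 13.8, 12.4 and 13.2 CPM in the control and 3.59, 2.58 and 3.64 CPM in the cKO (log2 fold change -2.04 ± 0.28, edgeR adjusted p = 0.000474). Tekt1 fell by 1.61 ± 0.40 and Tekt2 by 1.32 ± 0.28 (edgeR adjusted p of 0.0133 and 0.00556), the first lost without library B of either group (up to 0.0534). Tekt4 had a log2 fold change of -1.39 ± 0.52 and did not pass (edgeR adjusted p = 0.0664). The adenylate kinases fell, Ak7 by 1.33 ± 0.31 and Ak8 by 1.50 ± 0.44 on the log2 scale (edgeR adjusted p of 0.00898 and 0.0262), although Ak8 overlapped through library C of the cKO (6.21 CPM, against 6.18 CPM in control library B) and lost its call without library A or B of the cKO or A or C of the control (edgeR adjusted p up to 0.0979). Tppp3, which is expressed in many cell types, had 68.1, 78.4 and 93.6 CPM in the control and 78.9, 95.8 and 80.3 CPM in the cKO (0.09 ± 0.13, edgeR adjusted p = 0.648).

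**Figure D3:**
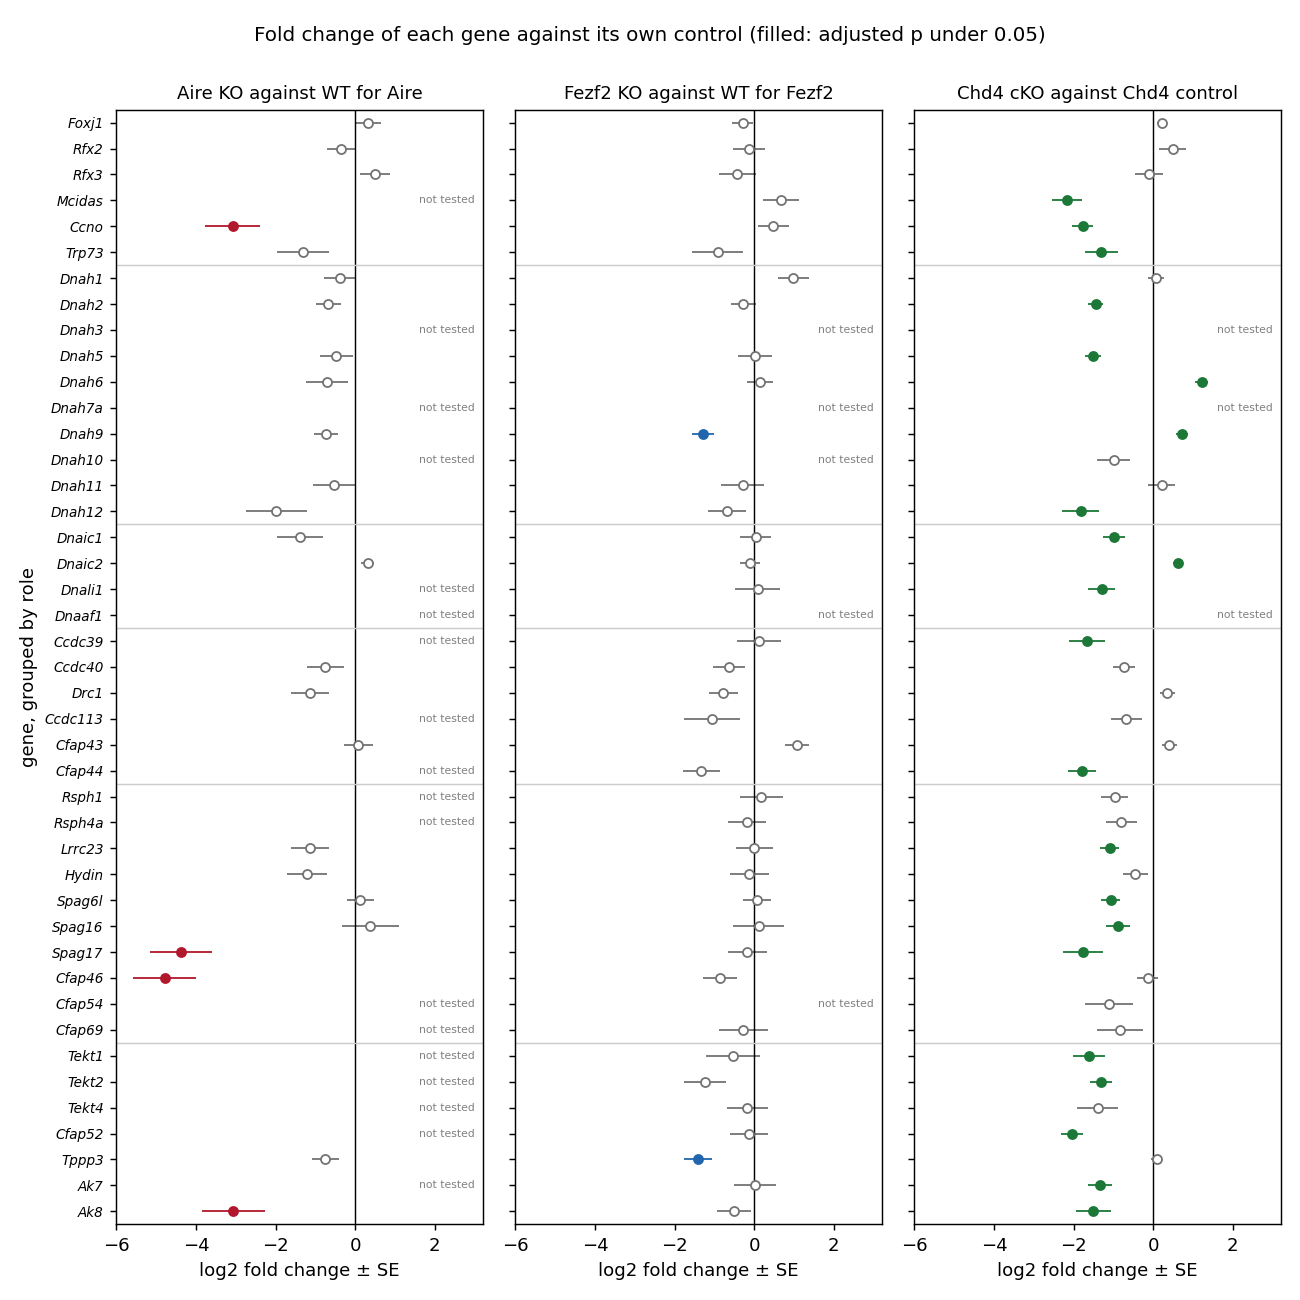
Log2 fold change of each gene against its own control with its standard error, in 3 panels of 1 comparison each; filled points passed the edgeR test at an adjusted p under 0.05, and genes that did not pass the filter on low counts are marked as not tested. The Chd4 panel holds 19 filled points left of 0 and 3 right of it, the Aire panel 4 left of 0 and the Fezf2 panel 2 left of 0.

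Over all 43 genes, 23 lay lower in the Chd4 cKO without overlap, 5 higher (Foxj1, Dnah6, Dnah9, Dnaic2 and Cfap43) and 15 overlapped, where 21.6% of all genes with at least 10 reads lay lower without overlap and 19.2% higher. With no filter the median log2 fold change was -0.95 over the 43 genes and -0.00125 over all 20413 genes. The rest of the motile axoneme went the same way. Of 52 tested, 22 fell and 2 rose. Those that fell furthest were Tmem212 (log2 fold change -4.22 ± 0.51), Sntn (-3.43 ± 0.64), Cfap206 (-2.16 ± 0.34), Meig1 (-2.13 ± 0.55) and Ccdc153 (-1.97 ± 0.39), and Dnah8 (0.82 ± 0.25) and Rsph3b (0.61 ± 0.15) rose. Sntn, which encodes sentan of the ciliary tip, stood at 4.25 ± 0.70 CPM in the control and 0.286 ± 0.33 CPM in the cKO (SD, n = 3). Among 33 genes of intraflagellar transport and the BBSome, Arl6 (-1.18 ± 0.12), Ttc8 (-1.22 ± 0.16), Ift46 (-0.72 ± 0.14) and Ift22 (-0.59 ± 0.12) fell and Ttc21b (0.99 ± 0.21) rose. The 4 that fell were near the share over all genes tested (14.3% called lower), and the median log2 fold change of this list was -0.13. Of the 10 markers of ciliated cells outside the core axoneme, 6 of 10 fell and 0 rose. All 10 are also on the list of the rest of the motile axoneme, so these 6 are among the 22 already counted and no separate result. Tuft cell markers, another rare epithelial type, fell in 4 of 8. Of the 8 airway secretory markers, Scgb3a2 and Sftpd fell by 4.34 and 1.10 on the log2 scale and Scgb3a1 rose by 0.89 (summed level 472 to 1076 CPM in the control and 883 to 1457 CPM in the cKO). The summed level of 15 spermatid markers, cells that also build an axoneme, was 33.7 to 43.3 CPM in the control and at least 158 CPM in each cKO library. Most of it was Tekt5 (21.6 ± 4.81 and 157 ± 25.6 CPM), and Ldhc rose while Tnp2, a transition protein of sperm chromatin, fell by 1.15 ± 0.31 on the log2 scale (edgeR adjusted p = 0.019). The part of these cell types in the result was not tested.

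The Fezf2 KO asks the same question for Fezf2, and here the genes as a whole stood near their WT. Of 38 tested, 2 fell and 0 rose by edgeR, where 2.4% of all genes tested were called lower and 2.48% higher. At an unadjusted p under 0.05, 4 were lower and 2 higher, where 10.5% and 8.72% of all genes were. DESeq2 called 2 lower and 1 higher, where it called 3.67% and 3.77% of all genes. Without library B of the WT for Fezf2, 3 of 41 tested were called lower (Dnah9, Tppp3 and Drc1) and 1 higher (Cfap43), where 6.06% and 6.5% of all genes were. Over all 43 genes, 4 lay lower without overlap and 2 higher, where 12.3% and 12% of all genes did, and with no filter the median log2 fold change was -0.16 over the 43 genes and -0.0444 over all genes. Without library B, 8 lay lower and 3 higher, where 20.1% and 19.1% of all genes did, and the medians were -0.20 and 0.0155.

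Dnah9 had 36.3, 25.4 and 31.1 CPM in the WT and 13.1, 9.88 and 15.1 CPM in the KO (log2 fold change -1.28 ± 0.27, edgeR adjusted p = 0.0247). Tppp3 had 63.5, 170 and 77 CPM in the WT and 35.8, 36.6 and 44.3 CPM in the KO (-1.41 ± 0.34, edgeR adjusted p = 0.046). Every KO library was below every WT library for both genes, and the WT library B stood far above the others for Tppp3. Without that library both were still called, Dnah9 with a log2 fold change of -1.41 (edgeR adjusted p = 0.0017) and Tppp3 with a smaller one of -0.85 (edgeR adjusted p = 0.00401). Leaving out any 1 KO library ended both calls, with edgeR adjusted p of 0.079 to 0.148 for Dnah9 and up to 0.199 for Tppp3, and leaving out library A or C of the WT ended that of Dnah9. Cfap43 had 20.8, 10.5 and 19.7 CPM in the WT and 34.3, 28.2 and 45.4 CPM in the KO, above the WT in every library, and fell short of the threshold (1.07 ± 0.31, edgeR adjusted p = 0.0796). It was called higher by DESeq2 (adjusted p = 0.0305), with no filter and without library B of the WT. Cfap44, its partner in the tether, had 4.19, 7.33 and 6.98 CPM in the WT and 2.27, 2.06 and 2.98 CPM in the KO, lower without overlap and not called (-1.33 ± 0.47, edgeR adjusted p = 0.148, and -1.19 without library B of the WT, edgeR adjusted p = 0.17).

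Mcidas and Ccno, low in the libraries labelled Aire KO, were read in every library here. Mcidas had 5.66, 6.55 and 9.87 CPM in the WT and 5.42, 13.8 and 16.1 CPM in the KO (log2 fold change 0.67 ± 0.45, edgeR adjusted p = 0.458), and Ccno had 10.1, 17.8 and 14 CPM in the WT and 9.61, 22.6 and 26.4 CPM in the KO (0.48 ± 0.39, edgeR adjusted p = 0.547). Library A of the KO was lowest for both, and the groups overlapped. Foxj1 had 21.2, 34.3 and 28.4 CPM in the WT and 18.7, 23 and 27.1 CPM in the KO (-0.29 ± 0.26, edgeR adjusted p = 0.601). Cfap46 lay lower without overlap, with 9.22, 11.5 and 10.4 CPM in the WT and 4.37, 9.05 and 3.67 CPM in the KO, and did not pass (-0.86 ± 0.42, edgeR adjusted p = 0.294). Dnah1 lay higher without overlap, with 5.45, 4.72 and 10.6 CPM in the WT and 16.1, 13.8 and 11.2 CPM in the KO (0.99 ± 0.38, edgeR adjusted p = 0.192). None of these 5 genes was called without library B of the WT either, with log2 fold changes of 0.59 for Mcidas, 0.69 for Ccno, -0.11 for Foxj1, -0.78 for Cfap46 and 0.79 for Dnah1 (edgeR adjusted p of 0.462, 0.278, 0.813, 0.284 and 0.172). Of the other motile axoneme genes 0 of 51 were called by edgeR, as were 0 of 33 genes of intraflagellar transport and the BBSome, and of the other multiciliogenesis genes Plk4, a kinase of centriole duplication in all dividing cells, fell by 0.99 ± 0.22 on the log2 scale (edgeR adjusted p = 0.0302, and 0.00625 without library B of the WT). Without that library, 1 of 52 other motile axoneme genes was called lower, and of the 33 genes of intraflagellar transport and the BBSome 1 was called lower and 1 higher. Of the 16 other multiciliogenesis genes, 2 were then called lower and 1 higher, and of the 10 mTEC markers 1 lower and 4 higher. Thymocyte markers fell in 8 of 15 tested in the same comparison, and in 12 of 15 without that library. Of the 8 airway secretory markers, Cyp2f2, Scgb1a1 and Muc5b rose by 2.24, 1.28 and 2.23 on the log2 scale and Bpifb1 fell by 1.06 (summed level 724 to 1464 CPM in the WT and 1633 to 3685 CPM in the KO), and without library B of the WT 4 were called higher and 1 lower. The part of these markers in the result was not tested.

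The WT groups, both C57BL/6, allow a view of how far these genes differ between unmodified groups. When the WT for Fezf2 was set against that for Aire, 0 of 37 genes tested were called by edgeR, where 0.0319% of all genes tested were called lower and 0.0958% higher. At an unadjusted p under 0.05, 14 were higher and 0 lower, where 7.13% and 4.81% of all genes were. DESeq2 called 4 higher and 0 lower, where it called 1.48% and 0.832% of all genes. Without library B of the WT for Fezf2, edgeR called 4 higher and 0 lower, where 1.93% and 2% of all genes were: Lrrc23, Ccdc39, Drc1 and Tppp3 (log2 fold changes of 1.58, 2.66, 1.15 and 1.11, edgeR adjusted p of 0.0241, 0.0486, 0.0452 and 0.0437). Over all 43 genes, 38 had a higher mean in the WT for Fezf2, 19 lay higher without overlap and 1 (Spag17) lower, where 10.1% and 8.64% of all genes did. The median log2 fold change with no filter was 0.87 over the 43 genes and 0.0434 over all genes. Without library B, 23 lay higher and 1 lower, where 17.3% and 15.5% of all genes did, and the medians were 0.88 and -0.0131. On the scale of this comparison, Lrrc23 had 5.26, 5.4 and 4.28 CPM in the WT for Aire and 17.5, 25.4 and 12.4 CPM in that for Fezf2 (log2 fold change 1.88 ± 0.36, edgeR adjusted p = 0.0918), and Ccdc39 had 0.421, 0.939 and 0.901 CPM and 6.34, 5.02 and 3.4 CPM (2.67 ± 0.59, edgeR adjusted p = 0.109). Tppp3 had 19.2, 48.8 and 30.2 CPM and 64, 171 and 77.8 CPM (1.67 ± 0.42, edgeR adjusted p = 0.139). These values share their control libraries with the comparisons of the KO groups. The median difference between the WT groups was thus close in size to those of the libraries labelled Aire KO (-1.12) and of the Chd4 cKO (-0.95) from their controls. The thymocyte marker sums given above were also higher in the WT for Fezf2, where 4 of 15 were called. Airway secretory markers summed to 419 to 580 CPM in the WT for Aire and 729 to 1476 CPM in that for Fezf2, and tuft cell markers to 210 to 369 CPM and 496 to 645 CPM, with 0 of 8 called in either list. Without library B of the WT for Fezf2, 12 of 15 thymocyte, 4 of 8 secretory and 5 of 8 tuft cell markers were called higher. Their part in the result was not tested.

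Whether the effects differed between knockouts was tested as an interaction in 1 edgeR fit of all 18 libraries, in which all 43 genes were tested. Mcidas, Tekt1, Cfap52 and Rsph4a, too low to be tested in the Aire comparison, passed the filter on low counts here through the reads of other groups. On the Aire side they had 54, 18, 19 and 14 reads in the WT, in this order. The libraries labelled Aire KO had 2, 0, 1 and 38. Against the effect of Aire KO, that of Fezf2 KO differed in 6 genes, where 16.9% of all genes were called in either direction, and all 6 had the higher value in the Fezf2 KO. The difference was 5.09 ± 1.09 for Mcidas, 3.55 ± 0.73 for Ccno, 3.94 ± 0.83 for Cfap46 and 4.21 ± 0.93 for Spag17 on the log2 scale (edgeR adjusted p of 0.00259, 0.00178, 0.00221 and 0.00325), with Tekt1 and Cfap52 as the others. The fitted sizes for Tekt1 and Mcidas depend on how a group near 0 reads is handled and are no bounds. Between Chd4 cKO and Aire KO, 5 genes differed, where 16.5% of all genes did and the median over all genes was shifted by 0.115: Cfap46 (4.71 ± 0.81, edgeR adjusted p = 0.00037), Dnah6 (1.96 ± 0.54), Dnah9 (1.46 ± 0.37) and Drc1 were higher and Rsph4a lower in the effect of the Chd4 cKO. For Ccno and Mcidas this difference did not pass (1.32 ± 0.75 and 2.26 ± 1.17, edgeR adjusted p of 0.262 and 0.215). Between Chd4 cKO and Fezf2 KO, 7 genes differed, where 14.9% of all genes did. Mcidas (-2.82 ± 0.73, edgeR adjusted p = 0.0123), Ccno (-2.22 ± 0.55, edgeR adjusted p = 0.00949), Cfap52, Dnah2 and Dnah5 were lower in the effect of the Chd4 cKO, and Dnah9 (2.04 ± 0.37, edgeR adjusted p = 0.00081) and Tppp3 (1.54 ± 0.46, edgeR adjusted p = 0.03) higher. The calls on Mcidas, Ccno, Cfap46, Spag17, Cfap52 (against Aire KO) and Dnah9 held in every alternative run, and the other 8 were each lost without at least 1 library (edgeR adjusted p up to 0.198, for Dnah5). Without library B of the WT for Fezf2 the 6 genes of the first contrast were all still called, where 19.1% of all genes were. In the last contrast 7 were again called, where 18.6% of all genes were, with Dnah5 and Tppp3 lost (edgeR adjusted p of 0.0622 and 0.0735) and Dnaic2 and Drc1 in their place. Foxj1 was called in 0 of the 3 contrasts (edgeR adjusted p of 0.265, 0.897 and 0.346). In the contrasts with the Chd4 cKO, the knockouts also differ in strain, sequencing run and annotation, which cannot be told apart from the targeted gene. Called lower in both the libraries labelled Aire KO and the Chd4 cKO were 3 genes, Ccno, Spag17 and Ak8. Among genes tested in both comparisons, these are 3 of 4 called lower in the first, where 34.8% of all such genes were also lower in the second, and 3 of 11 called lower in the second, where 23.9% of all such genes were also lower in the first.

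**Figure D4:**
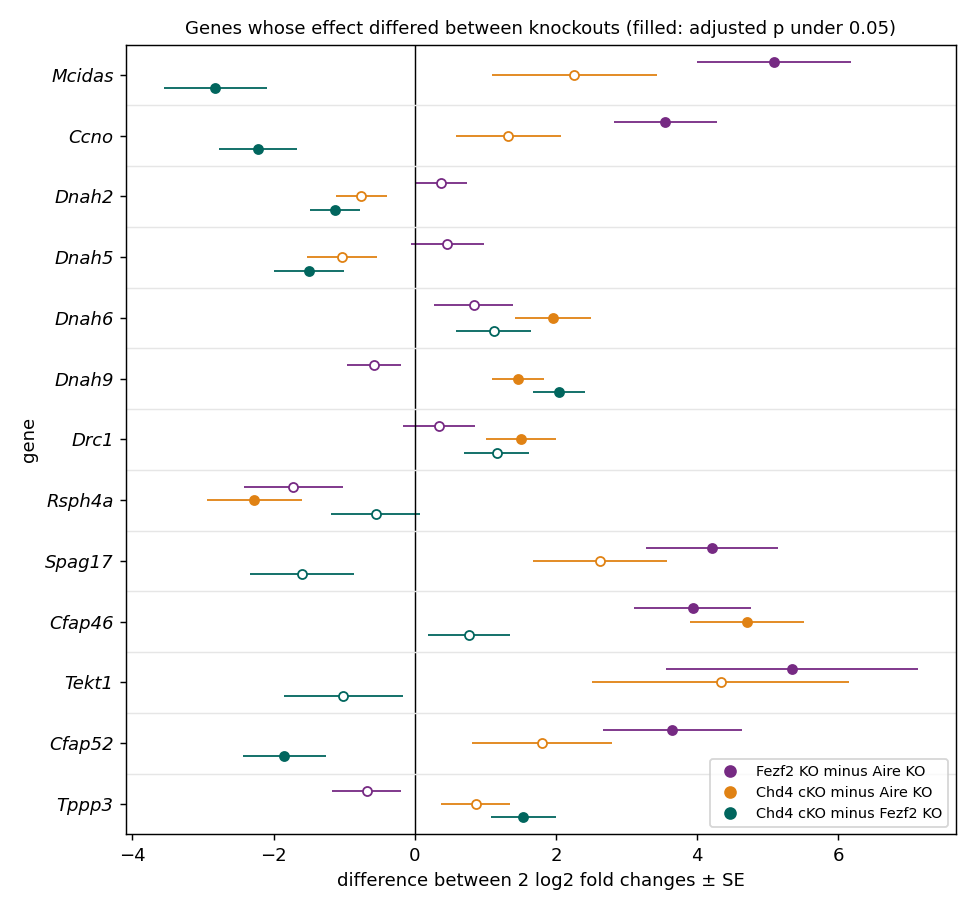
Difference between 2 log2 fold changes, with its standard error, for the genes called in at least 1 of the 3 contrasts; filled points passed the edgeR test at an adjusted p under 0.05. Mcidas and Ccno lie right of 0 in the contrast of Fezf2 KO minus Aire KO (5.09 and 3.55) and left of 0 in that of Chd4 cKO minus Fezf2 KO (-2.82 and -2.22), and Dnah9 lies right of 0 in both contrasts with the Chd4 cKO.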

How the data were processed

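Per the labels, cDNA from the RNA of sorted mTECs was prepared with a SMART-seq v4 kit. The authors deposited 1 table per targeted gene with counts of total exon reads per gene and library, per the file headers. The submitters' processing notes name DESeq2, GRCm38 and mm10. No source used here names the aligner, the strand handling or the counting of reads with several matches. Columns name a group and a barcode without a replicate number, so A, B and C follow barcode order. Of the per-library columns, 18 were used and 216 were not.

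For each comparison, the 6 libraries entered 1 edgeR 4.0.16 fit (R 4.3.3, TMM factors, filterByExpr, quasi-likelihood F test), and a gene was called at an adjusted p under 0.05 (Benjamini-Hochberg, over all genes tested). CPM used the effective library sizes of that fit, and a standard error is the log2 fold change divided by the square root of F. Differences between effects were interaction contrasts in 1 fit of the 18 libraries over the gene IDs shared by the tables. Overlap was counted for genes with at least 10 reads over the 6 libraries. For counts of genes with a lower or higher mean, no share over all genes was taken, so they are descriptions only. The biological coefficient of variation was 0.183 (Aire), 0.279 (Fezf2), 0.149 (Chd4) and 0.28 (WT groups). On simulated data with the depth of these libraries, 55.1%, 19.6%, 71.9% and 15% of 2-fold changes were recovered in the same order, and 92.6%, 87.4%, 97.9% and 72.2% of 4-fold changes, among 14564, 15334, 14976 and 15275 genes. Of the genes called there, 10.7%, 7.27%, 8.89% and 10.5% had not been changed, more than the threshold of 0.05 aims at. Recovery was taken over all genes passing the filter and not for genes of low counts alone.

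Alternatives were DESeq2 1.42.0, RLE factors, no filter, a fit of the 12 Aire and Fezf2 libraries, leaving out each library and, chosen after seeing the data, no filter together with leaving out library B of the WT for Fezf2. All 43 genes may be named, and in each other list of genes at most the 6 largest called changes in each direction. The members and the lists were chosen with earlier results of these data known. Positions are from GENCODE on GRCm38 and promoters from RefSeq GRCm38.p6.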

Additional observations from a re-analysis of the deposited data

Results flagged for a closer look

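For 18 pairs of gene and contrast, the effects of 2 knockouts differed by the interaction test of the fit of all 18 libraries (edgeR, adjusted p under 0.05). In the order of the contrasts below, these were 6, 5 and 7 of the 43 genes, where 16.9%, 16.5% and 14.9% of all genes were called. The number called was thus near the share over all genes. In the effect of Fezf2 KO minus that of Aire KO, the log2 differences were 5.085 for Mcidas, 3.547 for Ccno, 3.939 for Cfap46, 4.215 for Spag17, 3.651 for Cfap52 and 5.343 for Tekt1. All 6 genes had few or no reads in the libraries labelled Aire KO. Mcidas, Cfap52 and Tekt1, and Rsph4a in the next contrast, were too low to be tested in the Aire comparison. They passed the filter of this fit through the reads of other groups. The call on Tekt1, which rests on 18 WT reads against 0 on the Aire side, was lost in 9 of 15 alternatives (edgeR adjusted p up to 0.0994), and those on the other genes were lost in none.

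In the effect of Chd4 cKO minus that of Aire KO, the differences were 4.708 for Cfap46, 1.956 for Dnah6, 1.464 for Dnah9, 1.506 for Drc1 and -2.271 for Rsph4a, where the median over all genes was 0.115. The call on Drc1 was lost in 10 alternatives, that on Rsph4a in 6 and that on Dnah6 in 1, without library A of the WT for Aire (edgeR adjusted p up to 0.129, 0.0682 and 0.055).

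In the effect of Chd4 cKO minus that of Fezf2 KO, the differences were -2.824 for Mcidas, -2.223 for Ccno, -1.845 for Cfap52, -1.129 for Dnah2, -1.494 for Dnah5, 2.04 for Dnah9 and 1.54 for Tppp3. Those on Mcidas, Ccno and Dnah9 held in all 15 alternatives. The calls on Cfap52, Dnah2, Dnah5 and Tppp3 were lost in 11, 9, 10 and 6 (edgeR adjusted p up to 0.105, 0.0834, 0.198 and 0.0742).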

How the results depend on the processing

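Direction in the alternative runs was checked only within the main set of ciliated cell and axoneme genes, and not for the other lists. The check covered those called in the edgeR fits, and Mcidas, Ccno, Foxj1, Cfap43, Dnah9, Dnaic2 and Tppp3 wherever tested in a comparison. Of these, none that was called in either setting changed its direction in any alternative run. The direction of the other genes named with a test was not checked. Genes called lower in the libraries labelled Aire KO numbered 4, and 9 with no filter, 9 with the 12 libraries in one fit and 3 to 7 with a library left out. In the Fezf2 KO, 2 were lower (0 to 3 with a library left out) and 0 higher (1 with DESeq2, 1 with no filter, 1 with no filter and without library B of the WT for Fezf2, and 0 to 1 with a library left out). In the Chd4 cKO, 19 lower became 13 to 17 with a library left out, and 3 higher stayed at 3. Between the WT groups, 0 higher became 2 with the 12 libraries in one fit, 4 with DESeq2, 4 with no filter, 6 with no filter and without that library B, and 0 to 4 with a library left out. Effects that differed numbered 5 for Chd4 cKO minus Aire KO (2 to 6 with a library left out) and 7 for Chd4 cKO minus Fezf2 KO (4 with no filter, 3 to 7 with a library left out). The causes of these shifts were not tested. Over all genes, those higher in the libraries labelled Aire KO fell from 856 to 460 with the 12 libraries in one fit, those called in the Fezf2 KO went from 376 lower and 389 higher to 629 and 645 with DESeq2, and those between the WT groups from 5 and 15 to 138 and 245. No paired analysis was possible because the columns of the tables carry no replicate numbers. A count of 0 allows up to 0.174 to 0.84 CPM in a library, so differences in genes such as Dnah3, Cfap54 and Cfap69 in the Aire comparison were not detectable at this depth.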
